A study of Mus musculus with 48 samples.

Results

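Liver RNA of restricted DNA repair mutant mice was compared with that of freely fed wild-type mice, as a measure of how far the restricted mutant liver lay from the normal one. The members were the 5 arrays of the DR 30% group and the 5 arrays of the WT-Control group, 10 of the 24 arrays of the series, and the comparison ran over all 45141 probe sets of the value table. DR 30% mice were Ercc1Δ/-, with 1 truncated and 1 null allele of Ercc1 in every cell, and received less food from 7 weeks of age, with the full restriction of 30% from 9 weeks. WT-Control mice were WT littermates with free access to the same AIN93G diet. The paper states, in its account of restriction, that food was handed out shortly before the dark phase. The timing of meals may thus have differed between the groups as well as the amount. The other groups were unrestricted Ercc1Δ/- mice (Control, n = 5), Ercc1Δ/- mice given 14 ppm rapamycin (Rapa 14 ppm, n = 4) and WT mice under the same restriction (WT-DR, n = 5). All 24 mice were F1 hybrids of C57BL6J and FVB of 11 weeks of age. DR 30% and WT-Control differed in both genotype and feeding, so that in this comparison the effects of the mutation and of restriction cannot be told apart. Control and WT-DR differed from WT-Control by genotype alone or by feeding alone. Their values are therefore given beside this comparison for some of the genes and lists, but not for all. These groups share the WT-Control mice with the main comparison.

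ERCC1 forms with XPF a nuclease that cuts DNA during nucleotide excision repair, which removes bulky lesions, and during the repair of crosslinks between the strands. Without it, lesions persist and stall RNA polymerase, and a long gene offers more sites for a lesion than a short one. Restriction of food is known in rodent liver for lower growth hormone signalling, a loss of the sex difference of male liver, greater xenobiotic metabolism and a shift in the phase of feeding-dependent genes.

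Values were RMA expression on the log2 scale, on which 1 unit is 2-fold, and a differentially expressed gene (DEG) had a Benjamini-Hochberg FDR under 0.05 and a change of at least 1.5-fold in limma. The values carry no detection calls, so that a group mean under 4.19, the median over all probe sets, was not shown to be above background, and a difference from it is given as a lower bound on the size of the change. Among the genes named here this concerned the DR 30% mean of Serpina4-ps1 and Erc2 and the WT-Control mean of Sult3a1, Abcb1a (in 1 of 2 probe sets), Cux2, Eda2r, Ccne2 and S100a8. Bhlhe41, Mpo, Ngp and Xist were under 4.19 in both groups, where a difference says little. Arrays correlated at 0.992 to 0.996 within DR 30%, at 0.992 to 0.995 within WT-Control and at 0.981 to 0.988 between the 2 groups, across probe sets. The mean of 45 spike-in probe sets was 7.62 ± 0.022 in DR 30% and 7.69 ± 0.043 in WT-Control (SD, n = 5 each), a difference of -0.07 (exact permutation test, p = 0.0159), and the counts with arrays centred on these probe sets are given with the main counts. Of 8 hepatocyte markers, which included albumin, 0 were called by limma (3 at an unadjusted p under 0.05), and the mean over these markers was 13.3 to 13.4 in the DR 30% mice and 13.4 to 13.5 in the WT-Control mice.

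The targeted gene followed the labels. Ercc1 read 5.29, 4.77, 5.07, 4.83 and 4.85 in the DR 30% mice, against 6.68, 6.85, 6.57, 6.63 and 6.65 in the WT-Control mice, which is -1.71 ± 0.09 (log2 ± SE, limma adjusted p = 3.4e-11). Each of these mutant mice lay below each of these WT mice. The mean was 5.37 in Control (-1.30 ± 0.09 against WT-Control) and 6.29 in WT-DR (-0.39 ± 0.09, limma adjusted p = 0.00534). DR 30% was also lower than Control (-0.41 ± 0.09, limma adjusted p = 0.00727). Both of these differences between restricted and freely fed mice were under the fold cutoff. The 4 probe sets of the gene ran from -1.71 to 0.03, and 2 of them were called lower.

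The restricted mutant liver differed from WT-Control in 2543 probe sets (5.63%), of which 1671 were higher (3.7%) and 872 were lower (1.93%). With 1 probe set for each of the 17097 genes, 830 genes were higher (4.85%) and 397 were lower (2.32%), and these shares are the background for the gene lists that follow. The median log2 fold change over all genes was -0.03. Of the DEGs, 805 changed at least 2-fold, 142 at least 4-fold and 41 at least 8-fold. In 6641 probe sets (14.7%) the 5 mice of one group did not overlap with the 5 of the other. With the spike-in probe sets as reference, chosen after seeing the data, 2898 probe sets were called and 75.4% of them were higher, against 65.7% with the deposited values.

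**Figure D1:**
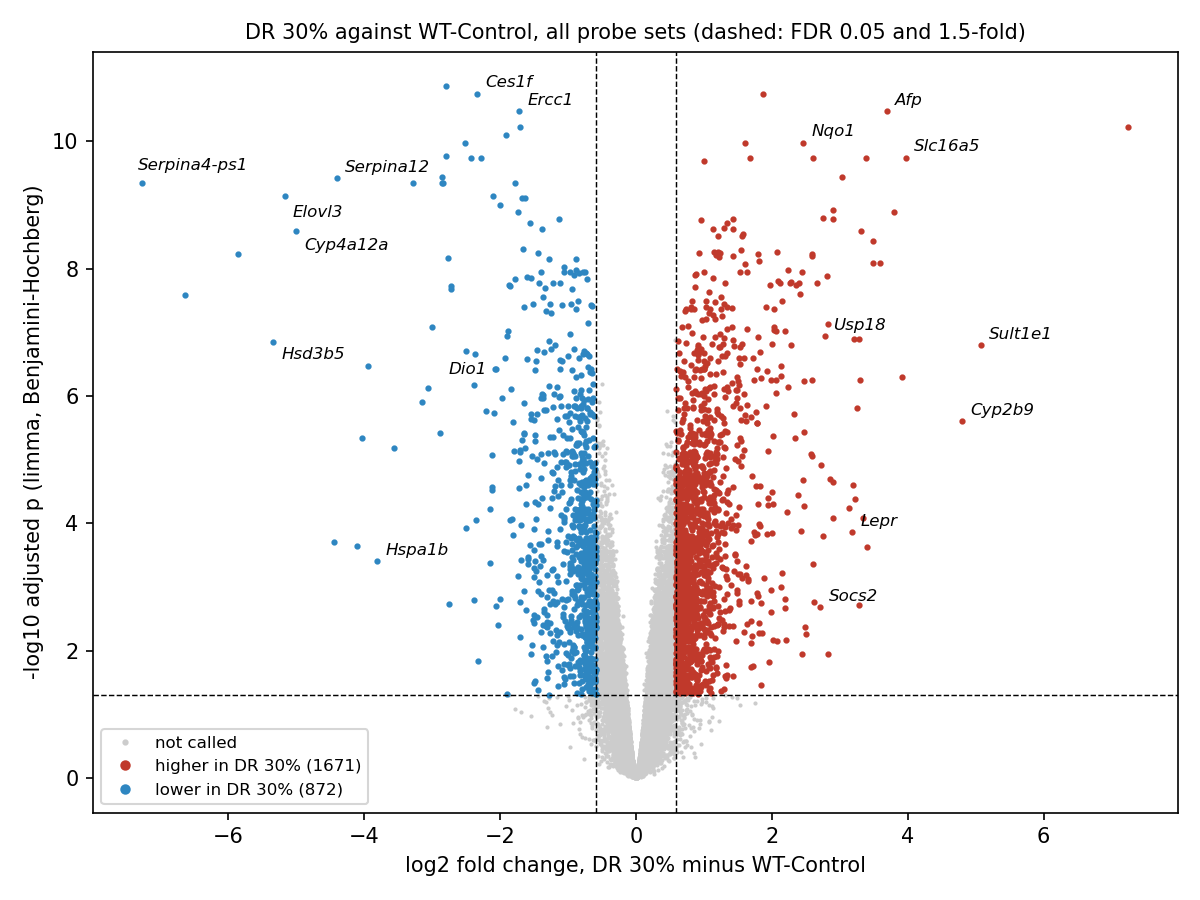
Log2 fold change of DR 30% minus WT-Control (horizontal) and -log10 of the limma adjusted p (vertical) for each of 45141 probe sets, with the 1671 higher DEGs in red and the 872 lower DEGs in blue. Serpina4-ps1, Hsd3b5, Elovl3 and Cyp4a12a lie far to the left and Sult1e1 and Cyp2b9 far to the right; the point at the far right is a probe set with no gene named here.

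The other pairs of groups, each of which shares the DR 30% or the WT-Control mice with this one, had 738 higher and 401 lower probe sets in Control against WT-Control (1.63% and 0.888%), and 1538 higher and 1187 lower in WT-DR against WT-Control (3.41% and 2.63%). DR 30% against Control had 673 higher and 428 lower (1.49% and 0.948%), and DR 30% against WT-DR had 1172 higher and 552 lower (2.6% and 1.22%). The distance of each mouse from the WT-Control mice, as the root mean square of the log2 differences over all probe sets averaged over these mice, was 0.45, 0.41, 0.42, 0.40 and 0.42 in the DR 30% mice. The mean distance was 0.419 ± 0.0199 in DR 30%, 0.351 ± 0.0156 in Control, 0.43 ± 0.0282 in WT-DR and 0.274 ± 0.00666 in WT-Control (SD, n = 5 each), where each WT-Control mouse was set against the other WT-Control mice. DR 30% livers thus lay farther out than Control livers, by 0.0678 with no overlap (exact two-sided permutation test, p = 0.00794, adjusted over 3 comparisons 0.0119). The difference from WT-Control was 0.145 (same test, p = 0.00794, adjusted 0.0119). Since the WT-Control mice were themselves the reference, a larger distance of DR 30% was largely built in, and this p adds no support of its own. A p of 0.00794 is the smallest that 5 mice against 5 allow. The difference from WT-DR was -0.0111 and did not pass (exact p = 0.476, adjusted 0.476).

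Genes that differ between male and female mouse liver, many of them enzymes of steroid and lipid metabolism under the control of the pattern of growth hormone release, included the 4 genes with the largest decreases and the 2 with the largest increases among probe sets of 1 gene. Of 19 measured male-biased genes, 15 were lower in DR 30% and 0 were higher, with a median log2 fold change of -1.36. Of 21 measured female-biased genes, 15 were higher and 1 was lower, with a median of 1.4. These counts stand against 2.32% of genes lower and 4.85% higher. Y-linked Eif2s3y averaged 10.0 in DR 30% and 9.75 in WT-Control, and Xist averaged 3.87 and 4.10 in the same order, and neither was called.

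Serpina4-ps1, a transcribed pseudogene of the serpin family on chromosome 12, had the largest decrease among these probe sets of 1 gene without overlap. Its values were 3.40, 4.50, 3.47, 4.39 and 4.14 in the DR 30% mice, against 12.45, 10.88, 12.14, 10.57 and 10.18 in the WT-Control mice, a difference of -7.27 ± 0.49 (adjusted p = 4.4e-10), which is a lower bound on the size of the decrease because the DR 30% mean of 3.98 was under 4.19. All 5 restricted mutants lay more than 5 units below the lowest WT-Control mouse, and the group means were 8.99 in Control and 6.21 in WT-DR. Hsd3b5, a steroid-reducing enzyme typical of male liver, read 4.47, 7.03, 6.59, 9.61 and 7.24 in DR 30% and 12.35, 12.28, 12.33, 12.37 and 12.31 in WT-Control (-5.34 ± 0.53, 40.6-fold, adjusted p = 1.4e-07). The WT-Control mice agreed to within 0.1 unit while the DR 30% mice spread over 5 units, with mouse 368 the highest and mouse 362 the lowest.

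Elovl3, which lengthens very long fatty acids, was at 6.66, 5.99, 5.85, 7.79 and 6.22 in DR 30% and at 11.55, 11.29, 11.93, 11.42 and 12.18 in WT-Control (-5.17 ± 0.36, adjusted p = 7.2e-10). Cyp4a12a, an androgen-dependent fatty acid hydroxylase, was at 5.80, 6.45, 5.59, 8.43 and 6.42 in DR 30% and at 11.37, 11.59, 11.95, 11.46 and 11.35 in WT-Control (-5.00 ± 0.38, adjusted p = 2.6e-09). In both genes mouse 368 was again the highest DR 30% mouse. The remaining lower members included the bile acid hydroxylase Cyp7b1 (-1.71 ± 0.22), the complement genes C8a (-1.63 ± 0.21) and C6 (-1.48 ± 0.28), the pheromone carrier Mup3 (-0.75 ± 0.17), the steroid hydroxylase Cyp2d9 (-1.10 ± 0.17) and Nudt7, a peroxisomal enzyme that degrades coenzyme A (-1.28 ± 0.10).

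On the female side, Sult1e1, which inactivates oestrogens by sulfation, read 10.55, 9.77, 10.22, 8.00 and 8.85 in DR 30%, against 4.53, 4.35, 4.53, 4.40 and 4.23 in WT-Control. This was 5.07 ± 0.51 higher, or 33.6-fold (adjusted p = 1.6e-07). Cyp2b9, a cytochrome P450 of female liver, read 10.91, 8.44, 10.98, 8.28 and 9.92 in DR 30%, against 4.09, 7.28, 4.30, 4.80 and 4.10 in WT-Control (4.79 ± 0.58, adjusted p = 2.5e-06). One WT-Control mouse, 402, stood well above the other 4 WT-Control mice in Cyp2b9 but below every DR 30% mouse. Sult1e1 averaged 7.72 in Control and 10.06 in WT-DR, and Cyp2b9 averaged 5.65 in Control and 11.99 in WT-DR.

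Sult3a1, another sulfotransferase of female liver, read 7.05, 6.05, 7.97, 3.92 and 7.23 in DR 30% and 3.04, 2.99, 3.33, 3.22 and 2.93 in WT-Control (3.34 ± 0.53, adjusted p = 8.2e-05), where the WT-Control mean of 3.10 makes the difference a lower bound. Acot3, a peroxisomal thioesterase, read 11.06, 9.06, 9.84, 8.49 and 9.35 in DR 30% and 6.77, 6.55, 6.43, 6.09 and 5.50 in WT-Control (3.29 ± 0.36, adjusted p = 5.6e-07). Mouse 368 was the lowest DR 30% mouse in Sult1e1, Sult3a1, Acot3 and Cyp2b9, as it had been the highest in Hsd3b5, Elovl3 and Cyp4a12a. Transcription regulators of the list were also higher, Trim24 by 2.07 ± 0.16 and Cux2, which activates female-biased genes, by 2.86 ± 0.40. Ntrk2, a neurotrophin receptor, was the lower member (-1.17 ± 0.23).

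In Control against WT-Control, 2.49% of genes were higher and 1.11% lower. There, 2 male-biased genes were lower and 1 higher, and 1 female-biased gene (Sult1e1) was higher and 3 lower. In WT-DR against WT-Control, where 2.85% of genes were higher and 3.52% lower, 16 male-biased genes were lower and 0 higher, and 16 female-biased genes were higher and 1 lower. Hsd3b5 averaged 6.99 in DR 30%, 11.77 in Control, 4.02 in WT-DR and 12.33 in WT-Control. Set against WT-DR directly, with 4.22% of genes higher and 1.22% lower, DR 30% livers had 9 male-biased genes higher and 1 lower, and 3 female-biased genes higher and 7 lower. The restricted mutants therefore lay between WT-DR and WT-Control in many of these genes, as in Elovl3 with means of 6.50 in DR 30%, 4.76 in WT-DR and 11.67 in WT-Control.

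**Figure D2:**
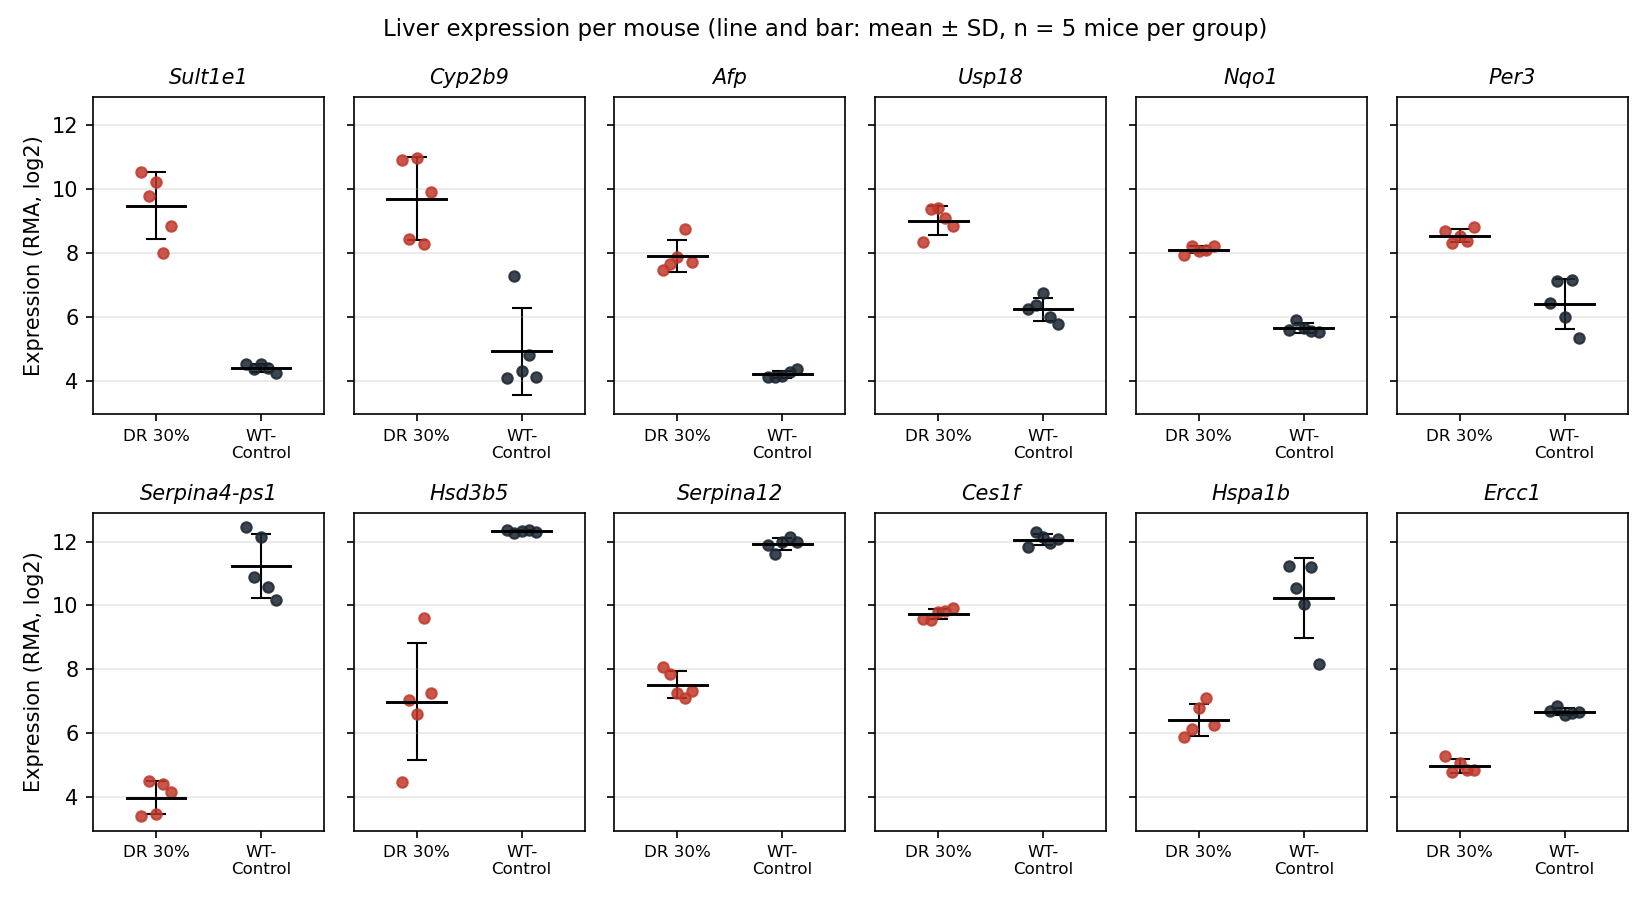
Log2 expression in each mouse (points) with the mean ± SD (line and bar) for 12 genes in DR 30% (left, red) and WT-Control (right, dark), n = 5 mice per group. The upper 6 genes are higher and the lower 6 are lower in DR 30%. The groups do not overlap, which was a condition for picking the genes of largest change among them. The points spread widely among DR 30% mice in Hsd3b5 and Cyp2b9 and among WT-Control mice in Cyp2b9 and Hspa1b.

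The growth hormone axis itself had 2 higher and 2 lower members of 14. Ghr, the growth hormone receptor, read 11.78, 11.74, 11.94, 11.97 and 11.96 in DR 30% and 12.74, 12.76, 12.73, 12.81 and 12.76 in WT-Control (-0.88 ± 0.07, adjusted p = 1.1e-08). The groups were far apart next to a spread of about 0.1 unit, and Control at 12.37 and WT-DR at 12.17 lay between them. Igfals, which stabilises IGF1 in serum, was lower by 0.74 ± 0.17 on the log2 scale (adjusted p = 0.00295). Igf1, the main growth signal secreted by liver, was at 12.15 ± 0.09 in DR 30% and 12.50 ± 0.02 in WT-Control, which at -0.35 (95% interval -0.47 to -0.23) passed the FDR but not the fold cutoff.

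Socs2, a feedback inhibitor of the growth hormone receptor, moved the other way. It read 11.26, 10.73, 10.00, 9.81 and 9.56 in DR 30%, against 8.54, 8.06, 8.80, 5.88 and 6.53 in WT-Control (2.71 ± 0.59, adjusted p = 0.00208), without overlap but with almost 3 units between WT-Control mice. Of its 4 probe sets, which ran from -0.00 to 3.28, 2 were called. Igfbp1, which binds IGF1 and is secreted in fasting, was higher by 1.29 ± 0.31 (adjusted p = 0.0043). The leptin receptor gene Lepr was higher in 3 of its 4 probe sets and read 9.90, 8.43, 9.44, 7.19 and 7.99 in DR 30%, against 6.06, 6.24, 4.06, 4.76 and 5.93 in WT-Control (3.18 ± 0.53, adjusted p = 1.4e-04). Its mean was 5.38 in Control and 9.33 in WT-DR.

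Many enzymes that detoxify electrophiles and drugs were higher. Of 30 measured targets of NRF2, the transcription factor of the antioxidant response, 10 were higher and 1 was lower, and of 16 glutathione transferases, 8 were higher and 1 was lower. Nqo1, a quinone reductase, read 7.94, 8.22, 8.07, 8.09 and 8.22 in DR 30%, against 5.58, 5.91, 5.64, 5.57 and 5.53 in WT-Control (2.46 ± 0.15, adjusted p = 1.1e-10). Both groups were tight and 2 units apart, and the means of Control (6.91) and WT-DR (7.21) fell between them. The mean of DR 30% was above that of each single-factor group in Nqo1, as it was in Gsta2, a glutathione transferase with means of 11.09 in DR 30%, 10.39 in Control, 9.76 in WT-DR and 8.65 in WT-Control.

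Gstm3 was higher by 1.92 ± 0.17 (adjusted p = 4.1e-08), the carbonyl reductase gene Cbr1 by 1.21 ± 0.10 and the metal-binding Mt1 by 2.61 ± 0.49. Other members stayed close to WT-Control. Hmox1, which degrades haem, differed by 0.02 (adjusted p = 0.968) and Txnrd1, thioredoxin reductase, by 0.06 (adjusted p = 0.641). Among 20 xenobiotic P450 genes and their regulators, 6 were higher, with Cyp2a5 at 1.78 ± 0.30 and Cyp2c39 at 1.51 ± 0.29, and 4 were lower, with Cyp1a2 at -1.31 ± 0.27. Of 9 UDP-glucuronosyltransferases, 0 were called by limma (4 at an unadjusted p under 0.05).

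Fmo2, a flavin monooxygenase, was called higher in 3 of 4 probe sets. In the probe set with the largest change it read 8.05, 8.88, 8.45, 7.50 and 7.86 in DR 30%, against 4.49, 4.64, 4.47, 3.96 and 4.16 in WT-Control (3.80 ± 0.27, adjusted p = 1.3e-09). Slc16a5, of the monocarboxylate transporter family, read 8.70, 8.35, 8.12, 8.26 and 8.41 in DR 30%, against 4.47, 4.69, 4.89, 3.65 and 4.28 in WT-Control (3.97 ± 0.25, adjusted p = 1.8e-10). In both genes the gap between the groups was over 2 units. Fmo2 in this probe set averaged 4.98 in Control and 8.83 in WT-DR, and Slc16a5 averaged 6.75 in Control and 7.96 in WT-DR. The drug efflux pump gene Abcb1a was higher in both of its 2 probe sets, by 2.59 ± 0.28 in the more strongly expressed one. The other was higher by 3.28 ± 0.32, a lower bound because its WT-Control mean was 3.39. Of 14 anion transporter genes of the Slco family 1 was higher, Slco1a4 (2.13 ± 0.23), and 2 were lower, among them Slco1a1 (-1.36 ± 0.15), a male-biased gene.

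Carboxylesterases, which hydrolyse esters of drugs and lipids, had 4 lower and 1 higher of 13. Ces1f read 9.57, 9.54, 9.79, 9.82 and 9.91 in DR 30%, against 11.82, 12.31, 12.14, 11.96 and 12.08 in WT-Control (-2.34 ± 0.12, adjusted p = 1.8e-11). Serpina12, which encodes the secreted protein vaspin, read 8.07, 7.85, 7.26, 7.09 and 7.31 in DR 30%, against 11.88, 11.61, 12.00, 12.13 and 11.99 in WT-Control (-4.40 ± 0.29, adjusted p = 3.8e-10). All DR 30% mice were below all WT-Control mice in Ces1f, and the mean of Serpina12 was 9.60 in Control and 10.61 in WT-DR.

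Many interferon-stimulated genes were higher in DR 30%. Interferons signal through JAK kinases to a STAT and IRF complex that binds a response element in the promoters of antiviral genes. Of 22 measured genes, 13 were higher and 0 lower, with a median log2 fold change of 0.612, and without DR 30% mouse 368 the count was 8. The same list had 12 higher and 0 lower in Control against WT-Control, and 0 higher and 6 lower in WT-DR against WT-Control.

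The response element, GAAA, then any pair of bases, then GAAA, was searched on both strands in promoters of RefSeq (GRCm38.p6), each with 250 bases before and 50 after a start site. It was found in 6 of 17 promoters of the list, against 3.44% of all 32851 promoters, and the genes were Ddx58, Ifih1, Ifit1, Ifit3, Rsad2 and Stat2. Of these, Ifih1 (0.84 ± 0.10), Ifit1 (0.90 ± 0.29), Rsad2 (0.60 ± 0.21) and Ifit3 (0.62 ± 0.18) were called higher, Ddx58 was at 0.25 (adjusted p = 0.0627), and Stat2, of the interferon signalling complex itself, was at -0.51, under the fold cutoff. The 250 bases before the start sites of 2 antiviral genes whose promoters held the element are shown, with the element in capitals, as read on the strand of the gene, where it appears in its reverse complement. The window of Ifit1 is chr19:34640639-34640888 and that of Ifit3 is chr19:34583279-34583528, both on the plus strand. The matches start 104 and 85 bases before the start site in Ifit1 and 156 and 122 bases before it in Ifit3.
Ifit1: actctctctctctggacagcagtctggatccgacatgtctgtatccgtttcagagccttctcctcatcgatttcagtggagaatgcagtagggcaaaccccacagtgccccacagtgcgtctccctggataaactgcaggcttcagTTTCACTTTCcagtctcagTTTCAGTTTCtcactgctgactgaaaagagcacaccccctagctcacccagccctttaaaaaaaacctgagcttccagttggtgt
Ifit3: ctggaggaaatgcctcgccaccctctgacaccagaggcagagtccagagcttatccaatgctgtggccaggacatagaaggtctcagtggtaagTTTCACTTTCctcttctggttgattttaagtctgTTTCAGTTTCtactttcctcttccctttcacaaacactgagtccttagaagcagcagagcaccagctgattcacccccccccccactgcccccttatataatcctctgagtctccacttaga

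Usp18, which removes the ubiquitin-like ISG15 from proteins and dampens interferon signalling, had the largest change of the list. Its values were 8.33, 9.39, 9.40, 9.10 and 8.85 in DR 30%, against 6.25, 6.38, 6.75, 6.01 and 5.77 in WT-Control (2.78 ± 0.27, adjusted p = 1.2e-07), and the means were 8.40 in Control and 6.10 in WT-DR. The lowest DR 30% mouse was above the highest WT-Control mouse by more than 1 unit. Irf7, the transcription factor that amplifies the response, read 7.23, 7.61, 7.65, 7.36 and 7.58 in DR 30%, against 6.40, 6.35, 6.20, 5.80 and 6.0 in WT-Control (1.34 ± 0.15, adjusted p = 7.3e-07). The nucleic acid sensor Zbp1 was higher by 1.18 ± 0.21, Xaf1 by 1.36 ± 0.15 and the guanylate-binding protein gene Gbp3 by 1.60 ± 0.19. Xaf1 was called in 1 of 2 probe sets, with the other at 0.16. The mitochondrial Ifi27l2b, which was not in the list, was higher by 3.03 ± 0.20. Unlike the list, it was also called higher in WT-DR against WT-Control (1.15 ± 0.20, limma adjusted p = 2.3e-04), with means of 6.79 in Control and 5.71 in WT-DR.

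Of 13 macrophage and Kupffer cell markers, 1 was called higher, the scavenger receptor Marco at 2.01 ± 0.33, and the mean over these markers was 8.07 to 8.84 in the DR 30% mice and 7.79 to 8.24 in the WT-Control mice. The median over the 13 was 0.252, with 9 positive differences, and all 4 at an unadjusted p under 0.05 were positive. Vsig4 (0.55, adjusted p = 0.00282) and the lysozyme gene Lyz2 (0.34, adjusted p = 0.00852) passed the FDR but not the fold cutoff, and the lysosomal Cd68 was at 0.69 (adjusted p = 0.0634). Clec4f, a defining marker of Kupffer cells, was at 0.18 (adjusted p = 0.381), and the lowest of the list was the surface receptor Adgre1 at -0.30 (adjusted p = 0.17). In bulk liver, more cells of a type and more RNA per cell cannot be told apart. Of 7 neutrophil markers, S100a8 (1.48 ± 0.19) and S100a9 (1.54 ± 0.18) were higher and the granule genes Mpo and Ngp were not called. Of 11 lymphocyte markers, 0 were called by limma (3 at an unadjusted p under 0.05, all with negative differences). The part of these cells in the interferon and inflammatory genes was not tested.

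Several clock genes were higher, and the WT-Control mice varied in them. In the clock, BMAL1 and CLOCK activate Per and Cry genes through E-boxes, and the PAR factors DBP and TEF act on D-boxes against the repressor NFIL3. Of 20 measured genes, 9 were higher and 2 lower in DR 30% against WT-Control. Without DR 30% mouse 369, or without WT-Control mouse 405, 5 were higher. In Control against WT-Control 0 were called in either direction by limma (4 at an unadjusted p under 0.05), in WT-DR against WT-Control 11 were higher and 2 lower, and in DR 30% against WT-DR 0 were higher and 1 lower. The time of day at which livers were taken is not given in the sources used here, and its part in these differences was not tested. Nor was the part of meal timing, which may have differed between restricted and freely fed mice.

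The E-box, CACGTG, was in 6 of 21 promoters of the list (of Bhlhe41, Ciart, Cry1, Per1 and Tef), against 7.15% of all promoters. The D-box, TTANNTAA, was in 2 of 21 (of Per3 and Tef), against 6.0% of all. Both were searched on both strands. Of these genes, Ciart, Per1, Per3 and Tef were higher, Cry1 was at -0.08 (adjusted p = 0.874) and Bhlhe41 at -0.37, under the fold cutoff. The 250 bases before the start sites are shown for 3 that were higher, with the E-box in capitals for Ciart and Per1 and the D-box in capitals for Per3, each 5′ to 3′ on the strand of the gene. Ciart lies at chr3:95882229-95882478 on the minus strand, Per1 at chr11:69098699-69098948 on the plus strand and Per3 at chr4:151044666-151044915 on the minus strand, from RefSeq on GRCm38.p6. The matches start 116, 58 and 44 bases before the start site in Ciart, 166 before it in Per1, and 205 and 158 before it in Per3.
Ciart: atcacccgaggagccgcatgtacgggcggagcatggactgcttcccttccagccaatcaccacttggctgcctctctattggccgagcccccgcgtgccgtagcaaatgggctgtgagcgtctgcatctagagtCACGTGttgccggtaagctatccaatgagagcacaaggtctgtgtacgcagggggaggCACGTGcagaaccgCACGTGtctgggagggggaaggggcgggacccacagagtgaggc
Per1: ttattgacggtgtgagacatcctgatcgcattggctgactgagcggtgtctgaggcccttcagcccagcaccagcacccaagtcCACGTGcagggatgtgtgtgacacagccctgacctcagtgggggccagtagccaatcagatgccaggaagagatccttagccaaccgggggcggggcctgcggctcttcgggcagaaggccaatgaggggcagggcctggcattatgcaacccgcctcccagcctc
Per3: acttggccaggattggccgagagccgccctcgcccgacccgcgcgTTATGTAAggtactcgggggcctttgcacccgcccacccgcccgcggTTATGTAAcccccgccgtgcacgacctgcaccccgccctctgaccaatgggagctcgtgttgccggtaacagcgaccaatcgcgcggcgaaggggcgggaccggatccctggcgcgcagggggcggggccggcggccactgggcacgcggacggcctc

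Ciart, a repressor of the clock, read 7.43, 8.48, 8.00, 7.96 and 8.42 in DR 30%, against 6.65, 6.11, 3.86, 7.45 and 3.69 in WT-Control (2.51 ± 0.62, adjusted p = 0.00556). Per1 read 8.84, 9.03, 8.66, 9.09 and 9.07 in DR 30%, against 8.20, 8.35, 7.21, 7.99 and 6.27 in WT-Control (1.34 ± 0.41, adjusted p = 0.0245). The groups overlapped by 1 mouse in Ciart, and WT-Control mice 403 and 405 were the lowest of these 10 mice in both genes. Per3 read 8.70, 8.32, 8.52, 8.39 and 8.80 in DR 30%, against 6.42, 7.13, 5.99, 7.14 and 5.33 in WT-Control (2.14 ± 0.43, adjusted p = 9.9e-04), with no overlap and with mouse 405 again the lowest.

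Per1 lost its call without DR 30% mouse 369 (1.30, adjusted p = 0.0505), WT-Control mouse 403 (1.24, 0.056) or WT-Control mouse 405 (1.0, 0.0825). Cry2, with Per a repressor of CLOCK, varied little within groups and was at 8.26 ± 0.09 in DR 30% and 7.21 ± 0.22 in WT-Control (1.05 ± 0.14, adjusted p = 7.6e-06). Nfil3 was at 6.08 ± 0.45 in DR 30% and 8.20 ± 0.64 in WT-Control (-2.12 ± 0.31, adjusted p = 3.0e-05), with 5.83 in WT-DR and 7.85 in Control. Usp2, a deubiquitinase of clock proteins, was higher by 2.83 ± 0.77, Dbp by 1.30 ± 0.44 and Wee1, a cell cycle kinase under clock control, by 1.75 ± 0.29. Clock itself was lower by 0.67 ± 0.14 on the log2 scale, and Per2 (0.70, adjusted p = 0.262) was not called.

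Heat shock genes were lower or not called. Of 10 heat shock genes, 6 were lower and 0 higher, with 0 called in Control against WT-Control (4 at an unadjusted p under 0.05) and 6 lower in WT-DR against WT-Control. Hspa1b, the inducible HSP70, read 5.87, 6.12, 6.78, 7.09 and 6.24 in DR 30%, against 11.22, 10.54, 10.03, 11.21 and 8.16 in WT-Control (-3.81 ± 0.70, adjusted p = 3.9e-04). Mouse 405, which was low in Per1 and Ciart, was the lowest WT-Control mouse. Hspa1b averaged 8.21 in Control and 6.41 in WT-DR, and all 3 of its probe sets were called lower in DR 30%. In Control against WT-Control it was at -2.02 ± 0.70 (limma adjusted p = 0.0842), but another of its probe sets was called lower there (-2.52 ± 0.76, limma adjusted p = 0.0451). As for the clock genes, the part of the time of day and of meal timing in these differences was not tested. Hsph1, a nucleotide exchange factor of HSP70, was at 7.28 ± 0.51 in DR 30% and 9.67 ± 0.95 in WT-Control (-2.39 ± 0.51), Dnajb1 fell by 1.31 and Hsp90aa1 by 1.21.

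Of 21 genes of endoplasmic reticulum and integrated stress, 2 were higher and 6 lower. The chaperone Hspa5, also known as BiP, was at 11.69 ± 0.17 in DR 30% and 12.35 ± 0.24 in WT-Control (-0.66 ± 0.13, adjusted p = 8.7e-04), and Creld2 (-2.0 ± 0.42), Manf (-1.09 ± 0.23) and Ddit3 (-1.05 ± 0.35), all induced by unfolded proteins, were lower as well. Trib3, a pseudokinase induced by ATF4, went the other way with 7.79, 7.86, 7.94, 8.40 and 7.89 in DR 30%, against 4.87, 5.92, 5.58, 6.20 and 5.71 in WT-Control (2.32 ± 0.28, adjusted p = 1.9e-06). It was over 1 unit higher in each DR 30% mouse than in each WT-Control mouse, with means of 6.69 in Control and 6.22 in WT-DR. Atf3, a transcription factor of the same response, was higher by 0.86 ± 0.23.

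Genes of lipid and glucose metabolism were called in both directions. Of 21 genes of fatty acid and triglyceride synthesis, 4 were lower and 0 higher, with a median log2 fold change of -0.345, against 2.32% of all genes lower. This count fell to 1 without DR 30% mouse 368 or WT-Control mouse 405, and to 2 without DR 30% mouse 365 or WT-Control mouse 401. Mlxipl, the carbohydrate-responsive factor ChREBP, was lower (-0.79 ± 0.12, adjusted p = 6.4e-05), and so was the malic enzyme Me1 (-0.98 ± 0.29, in 1 of 2 probe sets). Fasn, fatty acid synthase, was at -0.55 (adjusted p = 0.445) and the desaturase Scd1 at -0.20 (adjusted p = 0.557). Acacb, which makes malonyl-CoA at mitochondria, read 8.63, 6.56, 5.96, 5.45 and 6.65 in DR 30% and 8.19, 7.55, 8.24, 7.52 and 9.22 in WT-Control, overlapping, at -1.50 ± 0.49 (adjusted p = 0.0327) in 1 of 2 probe sets, and its call was lost without any of 4 DR 30% mice (365, 366, 368, 369) or any of 3 WT-Control mice (401, 403, 405). In Control against WT-Control, 0 genes of the same list were higher and 3 lower, with a median of -0.267. WT-DR against WT-Control went the other way, with 4 higher, 0 lower and a median of 0.538. Against WT-DR, with 1.22% of genes lower, 11 genes of this list were lower in DR 30% and 0 higher, with a median of -1.14.

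Fatty acid oxidation had 4 higher and 2 lower of 25, with the peroxisomal Ehhadh (0.67) and the hydroxylase Cyp4a10 (1.99 ± 0.41) higher, and the hormone Fgf21 lower (-1.32 ± 0.36). Lpl, which releases fatty acids from lipoproteins and is low in adult liver, read 9.73, 9.44, 9.81, 9.87 and 10.17 in DR 30%, against 7.85, 7.33, 7.93, 7.19 and 8.13 in WT-Control (2.12 ± 0.18, adjusted p = 1.7e-08). All DR 30% mice were above all WT-Control mice, with 9.57 in Control and 7.55 in WT-DR. The apolipoprotein Apoa4 was higher by 1.52 ± 0.23. Of 19 genes of cholesterol synthesis and uptake, 1 was called, the cyclase Lss (1.11).

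G6pc, which releases glucose from liver, read 11.24, 11.15, 11.02, 11.02 and 11.05 in DR 30%, against 12.29, 12.73, 12.55, 11.66 and 12.83 in WT-Control (-1.32 ± 0.31, adjusted p = 0.00357), without overlap. Of 11 glycogen genes, 3 were higher and 2 lower, against 4.85% and 2.32% of all genes. The primer protein gene Gyg was higher (1.13 ± 0.08, adjusted p = 2.3e-09), while Ppp1r3b, which brings a phosphatase to glycogen, was lower (-1.27 ± 0.27), as was Ppp1r3c (-1.31 ± 0.30), and their relative Ppp1r3g was higher (1.85 ± 0.46). Cyp7a1, the rate-limiting enzyme of bile acid synthesis, was higher by 1.98 ± 0.44 and the sterol exporter Abcg5 by 0.90 ± 0.14, among 5 higher and 2 lower of 24 bile acid genes. Dio1, the deiodinase that activates thyroid hormone, read 9.07, 8.66, 8.95, 8.23 and 8.04 in DR 30%, against 10.95, 11.20, 11.08, 10.84 and 10.82 in WT-Control (-2.39 ± 0.26, adjusted p = 6.7e-07). The means of Dio1 were 9.83 in Control and 9.40 in WT-DR. The receptor gene Thrb was lower (-0.74 ± 0.11). Thra was higher (0.64 ± 0.14) in 1 of 2 probe sets, with the other at -0.06.

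**Figure D3:**
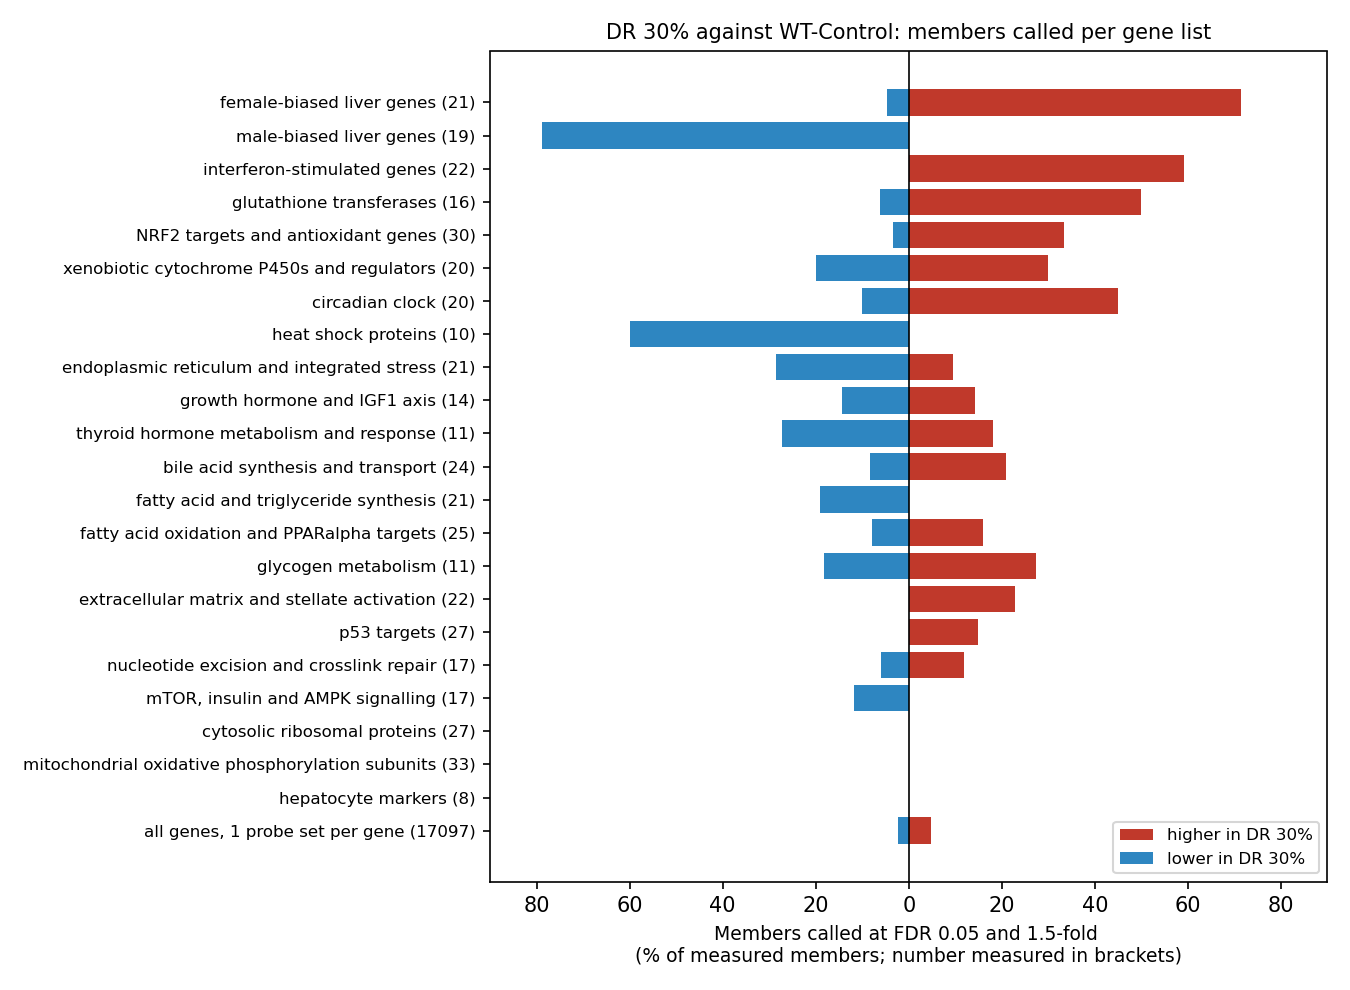
Share of the measured members of each list called higher (red, to the right) and lower (blue, to the left) in DR 30% against WT-Control, as % of the number in brackets. Among all 17097 genes 4.85% were higher and 2.32% lower, in the lowest row.

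Genes of the DNA damage response were called in part. Of 27 p53 targets, 4 were higher and 0 lower, with a median log2 fold change of 0.394. Cdkn1a, the cell cycle inhibitor p21, read 6.11, 6.90, 6.52, 6.91 and 6.35 in DR 30%, against 5.72, 5.54, 5.76, 5.81 and 5.72 in WT-Control, at 0.85 ± 0.30 (adjusted p = 0.0457), while Control averaged 7.70 and WT-DR 5.28. The mice of the 2 groups did not overlap, but the call was lost without any single one of 9 of the 10 mice, DR 30% mouse 362 being the exception, with 0.76 to 0.90 as the log2 fold change then, and in the values per gene (0.66, adjusted p = 0.141). Phlda3, an inhibitor of AKT, was higher by 1.39 ± 0.28, the receptor Eda2r by 1.21 ± 0.26 and the antiproliferative Btg2 by 1.37 ± 0.30. The mice of the 2 groups overlapped in Eda2r and in Btg2. In Control the means were 6.18 for Phlda3, 4.96 for Eda2r and 8.93 for Btg2, and in WT-DR 3.92, 3.77 and 8.07 in the same order.

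Of 17 repair genes, Ercc3, a helicase of the transcription factor TFIIH, was higher with 8.06, 7.65, 7.64, 7.60 and 7.57 in DR 30%, against 6.92, 6.85, 7.00, 7.04 and 7.02 in WT-Control (0.74 ± 0.10, adjusted p = 1.3e-05). Ddb2, which recognises lesions, was higher by 0.64 ± 0.11, and Ercc1 was the lower member. In Ercc3, mouse 362 stood above the other 4 DR 30% mice, which all lay above WT-Control.

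Afp, the albumin-like protein of fetal liver, read 7.48, 7.65, 7.86, 8.76 and 7.72 in DR 30%, against 4.11, 4.13, 4.15, 4.26 and 4.37 in WT-Control (3.69 ± 0.20, adjusted p = 3.4e-11). It averaged 8.46 in Control and 4.05 in WT-DR, and 3 of its 5 probe sets were called. Lcn2, an acute phase protein that binds bacterial siderophores, read 8.79, 9.41, 9.18, 8.64 and 8.04 in DR 30%, against 5.75, 5.60, 5.68, 4.75 and 4.86 in WT-Control (3.48 ± 0.28, adjusted p = 8.0e-09). Both genes separated the groups by over 2 units. Lcn2 averaged 8.24 in Control and 7.38 in WT-DR. Unlike Afp, it was called higher in WT-DR against WT-Control (2.05 ± 0.28) as well as in Control against WT-Control (2.91 ± 0.28). Of 27 cell cycle genes, 4 were higher and 0 lower, among them Mcm6 of the replicative helicase (1.49 ± 0.16) and Ccne2, a cyclin of S phase entry (1.43 ± 0.23). Of 22 matrix genes 5 were higher and 0 lower, among them the proteoglycan Lum (1.05 ± 0.13) and the elastase Mmp12 (1.36 ± 0.22). In Control against WT-Control, 4 cell cycle and 5 matrix genes were higher and 0 lower. In WT-DR against WT-Control, 1 cell cycle gene was higher and 2 lower, and 0 matrix genes were higher and 1 lower.

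Some groups held no calls. Of 27 cytosolic ribosomal protein genes, 33 genes of oxidative phosphorylation and 9 urea cycle genes, 0 were called at these thresholds by limma, with medians of 0.133, 0.0509 and 0.0508. At an unadjusted p under 0.05, 16 ribosomal, 7 oxidative phosphorylation and 4 urea cycle genes passed, all with positive differences.

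Of 17 genes of mTOR, insulin and AMPK signalling, 0 were higher and 2 were lower, against 2.32% of all genes lower. These were Rptor, the raptor subunit that recruits mTORC1 substrates (-0.67 ± 0.08, adjusted p = 1.9e-06, in 1 of 2 probe sets), and Irs1, an adaptor of the insulin receptor (-0.65 ± 0.16). Mtor read 8.17, 7.99, 8.07, 8.18 and 8.06 in DR 30%, against 8.33, 8.42, 8.49, 7.93 and 8.32 in WT-Control, a difference of -0.20 with a 95% interval of -0.43 to 0.03 (adjusted p = 0.21), and the groups overlapped. Its activator Rheb was at -0.00 (adjusted p = 0.978) and the inhibitor Tsc1 at 0.02 (adjusted p = 0.908). Of 18 autophagy genes, 0 were higher and 2 were lower, the kinase Ulk2 (-0.97 ± 0.14) and Atg7 (-0.81 ± 0.10), which conjugates LC3. Ulk2 was called in 3 of its 4 probe sets (-0.98 to 0.10) and Atg7 in only 1 of 4 (-0.81 to -0.01).

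Among long genes, those called lower outnumbered those called higher. The genome span of the 394 lower genes had a median of 40.3 kb and that of the 826 higher genes 20.8 kb, against 20.2 kb for all 16937 genes with a span. Of 5108 genes under 10 kb, 4.09% were higher and 1.47% lower in DR 30%. Of 1653 genes of 100 to 300 kb, 3.63% were higher and 4.6% lower. Of 471 genes over 300 kb, 4 were higher (0.849%) and 54 lower (11.5%), and among the 191 of these with expression above the median 26.2% were lower.

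The same class had 5 higher (1.06%) and 50 lower (10.6%) in Control against WT-Control, and 12 higher (2.55%) and 14 lower (2.97%) in WT-DR against WT-Control. The slope of the log2 difference from WT-Control on the log10 of span, over genes above median expression, was -0.0296, -0.0756, -0.0692, -0.0612 and -0.0573 in the DR 30% mice, against -0.0511, 0.03, 0.0179, -0.0232 and 0.0264 in the WT-Control mice, which average 0 by construction. All 5 restricted mutants had negative slopes, but 1 of the WT-Control mice lay among them. The means were -0.0586 ± 0.0177 in DR 30%, -0.0827 ± 0.03 in Control, 0.0361 ± 0.0256 in WT-DR and 0 ± 0.0356 in WT-Control. DR 30% differed from WT-Control by -0.0586 per 10-fold span (exact permutation test, p = 0.0159, adjusted over 3 comparisons 0.0238) and from WT-DR by -0.0947 (p = 0.00794, adjusted 0.0238). The difference from Control was 0.0241 (exact p = 0.23, adjusted 0.23). Without the minimum of expression the difference from WT-Control was -0.0172 and was not called (adjusted p = 0.119).

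**Figure D4:**
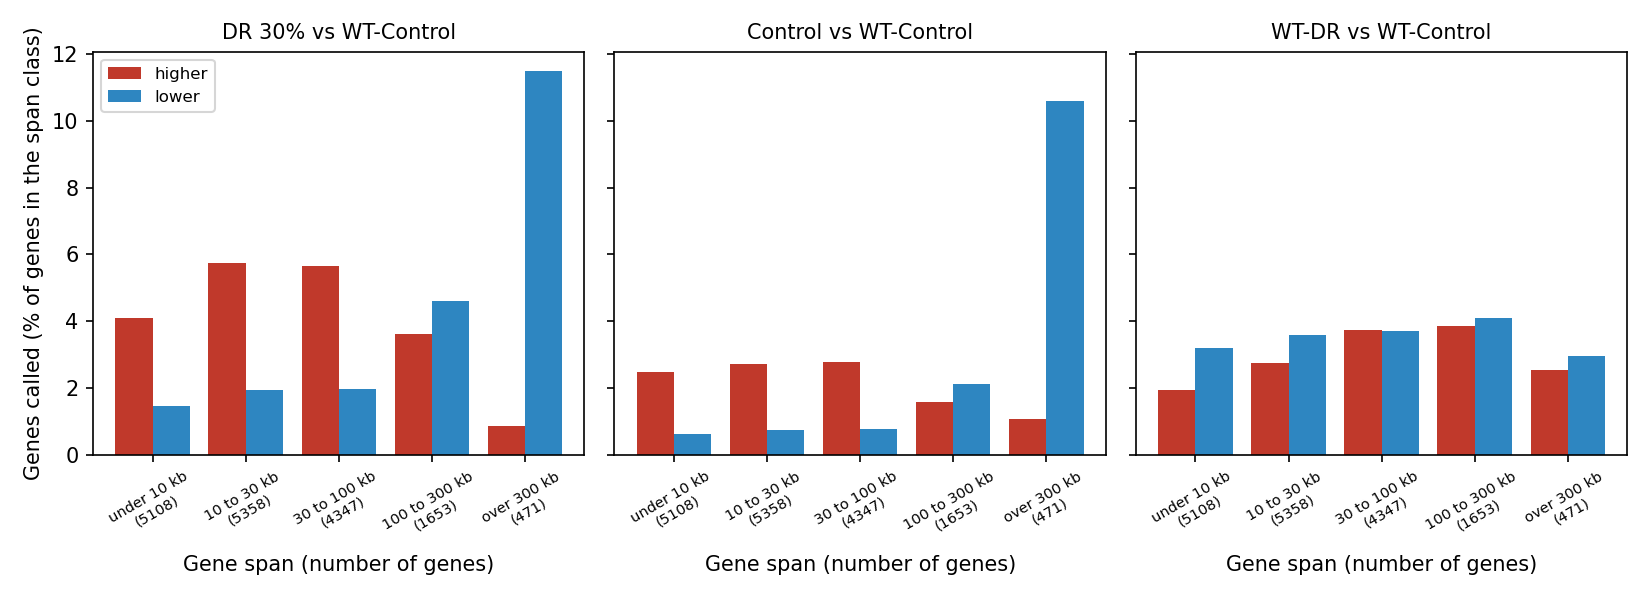
Share of genes (%) called higher (red) and lower (blue) by genome span in kb, 1 probe set per gene, in DR 30%, Control and WT-DR (left to right), each against WT-Control. Over 300 kb 11.5% of 471 genes were lower and 0.849% higher in DR 30%, whereas under 10 kb 1.47% of 5108 were lower and 4.09% higher.

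Of the longest lower genes, Fhit on chromosome 14, which spans 1611970 bases over a fragile site, read 6.99, 7.00, 7.17, 6.88 and 6.92 in DR 30%, against 8.09, 8.04, 8.25, 8.17 and 8.11 in WT-Control (-1.14 ± 0.08, adjusted p = 1.6e-09). Dpyd on chromosome 3, which starts the breakdown of pyrimidines over 870816 bases, read 11.71, 11.48, 11.57, 11.20 and 11.13 in DR 30%, against 12.35, 12.35, 12.31, 12.32 and 12.43 in WT-Control (-0.93 ± 0.08, adjusted p = 2.1e-08). In both genes Control lay at or below DR 30% (6.83 and 11.28) and WT-DR beside WT-Control (8.07 and 12.45). Erc2, a synaptic scaffold gene of 856263 bases, was lower in both (3.26 in DR 30%, 3.77 in Control, 3.86 in WT-DR and 5.16 in WT-Control), in 1 of 2 probe sets. Rad51b, of 550979 bases, which acts in homologous recombination, was a long gene that was higher, at 8.26 ± 0.56 in DR 30% and 5.43 ± 0.49 in WT-Control, but its other probe set was at -0.21.

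**Figure D5:**
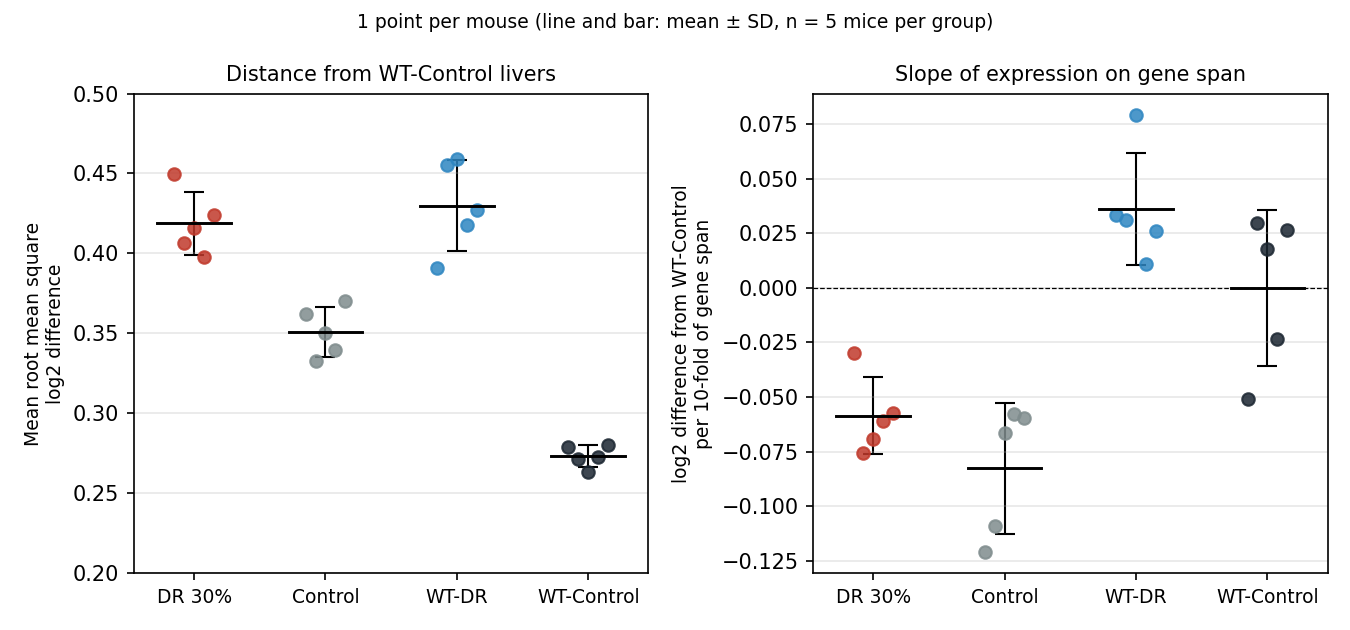
Distance from the WT-Control mice in log2 units (left) and slope on gene span in log2 per 10-fold span (right) for each mouse (points), with group means ± SD (line and bar, n = 5 per group). DR 30% mice lie at 0.40 to 0.45 in distance, above all Control mice, and all 5 have a negative slope.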

How the data were processed

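The authors ran liver RNA on Affymetrix plates of the type HT MG-430 PM, with a single array for every mouse. The deposited values were log2 expression, made by the authors with RMA after quality control in the arrayanalysis.org pipeline, and the version of RMA is not given in the sources used here. The 48 records held 2 sets of values of the same 24 mice, of which the one by probe set was used and the one by gene was an alternative. RMA pulls arrays to a common distribution, so that a shift of all genes would be lost. Arrays hold no read depth, and the 5 mice per group limit the precision.

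All 24 arrays were fitted in limma 3.58.1 (R 4.3.3) with 1 mean per group and Benjamini-Hochberg adjustment over all 45141 probe sets in each comparison. Probe sets were named from the array annotation, updated to RefSeq symbols (28898 name 1 gene, 551 several, and 15692 none here). Each gene was represented by its most strongly expressed probe set over all arrays, and spans and promoters came from RefSeq on GRCm38.p6. The distance and the slope of each mouse were tested by exact permutation of mice, two-sided. The groups of this comparison share no replicate numbers, and mice were separate animals. In simulated data, 21 of 50 probe sets changed 1.5-fold, 49 of 50 changed 2-fold and 2 of 44941 unchanged ones were called. The 1.5-fold changes lay at the cutoff itself, so that their count does not measure power. The simulation had independent normal noise and far fewer changed probe sets than passed the FDR here, so that its counts do not carry over to these data.

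The genes named were Ercc1 and Cdkn1a, the 15 largest increases and 15 largest decreases among DEGs without overlap, up to 4 genes per list with the smallest adjusted p, the longest DEGs, and Mtor, Rheb and Tsc1. Other list members were named after their values had been seen. The members and lists were chosen with earlier results of these data known. Alternatives were the values per gene, a model of 2 groups, dim probe sets left out, repeated quantile normalization, median centring, trend with robust variance, other fold cutoffs, spike-in centring (chosen after seeing the data) and leaving out each mouse.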

Additional observations from a re-analysis of the deposited data

Results flagged for a closer look

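Among 136 groups of 5 mice tested, 5 held a mouse that stood apart from the other 4 by Dixon's criterion, which chance does in about 1 in 20 groups. Ercc3 was at 8.06 in DR 30% mouse 362 and at 7.57 to 7.65 in the other DR 30% mice. Trib3 was at 8.40 in DR 30% mouse 368 and at 7.79 to 7.94 in the others. Btg2 was at 8.78 in DR 30% mouse 366 and at 9.44 to 9.68 in the others. WT-Control mouse 402 was high in Cyp2b9, with 7.28 against 4.09 to 4.80 in the other WT-Control mice, and in Nqo1, with 5.91 against 5.53 to 5.64.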

How the results depend on the processing

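The DEGs of DR 30% against WT-Control numbered 2543, and 2428 to 2659 when each mouse was left out in turn (1574 to 1748 higher, 818 to 921 lower). They numbered 2520 in a model of the 2 groups, 2441 without dim probe sets, 2453 after repeated quantile normalization (56.7% higher), 2558 with median centring, 2499 with trend and robust variance, and 2898 with spike-in centring. The values per gene gave 1128 (726 higher, 402 lower) of 17306, no fold cutoff 8961 (4714 higher, 4247 lower), and a cutoff of 2-fold 805 (522 higher, 283 lower). No paired analysis was possible because DR 30% and WT-Control mice share no replicate numbers.

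The difference in distance was 0.138 to 0.152 from WT-Control, 0.0601 to 0.0731 from Control and -0.021 to -0.00384 from WT-DR over the left-out mice. The slope on gene span was -0.0713 to -0.0511 from WT-Control (highest adjusted p = 0.0476, exact permutation), 0.0146 to 0.0304 from Control and -0.102 to -0.0839 from WT-DR; without a minimum of expression the difference from WT-Control was -0.0172, and as a rank correlation it was -0.0641, and neither passed (adjusted p = 0.119 and 0.238, exact permutation). In the values per gene, Ptbp1 was at 0.0808 (adjusted p = 0.491), against -2.85 in the probe set called, and Sox4 at -0.0189 (adjusted p = 0.808), against 0.79; the cause was not tested. Tef lost its call without DR 30% mouse 366, 368 or 369 or WT-Control mouse 403 or 405 (adjusted p up to 0.114).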

Other observations

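Major histocompatibility genes, whose proteins present antigens, were called in both directions. Of 25 genes, 1 was higher, the class I gene H2-Q4 (0.60), and 4 were lower, with a median log2 fold change of -0.0465, and in WT-DR against WT-Control 0 were higher and 5 lower. Of the class II genes, H2-Aa was at 8.29 ± 0.57 in DR 30% and 9.40 ± 0.38 in WT-Control (-1.11 ± 0.27, limma adjusted p = 0.00514), H2-Eb1 at 6.65 ± 0.67 and 7.83 ± 0.31 in the same order (-1.18 ± 0.29) and H2-Ab1 was lower by 0.99 ± 0.28 on the log2 scale. H2-Aa averaged 9.06 in Control and 7.90 in WT-DR.

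The methionine cycle, which supplies methyl groups, had Mat1a (0.59) and Mat2b (0.65) higher of 11 genes, both of which encode subunits of methionine adenosyltransferase. Id1, a target of the BMP signal that sets hepcidin, was higher by 1.84 (adjusted p = 0.00177) and was the 1 gene called of 15 of iron and haem handling. The pericentral list had the Wnt targets Axin2 (0.60) and Lgr5 (0.72) higher, and Cyp1a2 (-1.31) and the glutamate transporter Slc1a2 (-0.72) lower. Axin2 and Slc1a2 were each called in 1 of 2 probe sets, with the other at 0.18 in Axin2 and -0.03 in Slc1a2.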
